A study of Mus musculus with 9 samples.

Results

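The T-cell quiescence factors described here are 10 genes whose products are known to hold naive T cells in a resting state: Klf2, Klf4, Klf6, Foxp1, Foxo3, Tob1, Btg1, Btg2, Slfn2 and Tsc1. They were chosen by symbol from the 24060 genes of the table. Of the 10, 9 passed the filter on low values and were tested among 12115 genes, and Klf4 did not. The RNA came from CD8 T cells of 3 transnuclear mouse lines, Rop7-I, Rop7-II and Rop7-III, with 3 biological replicates per line and 9 samples in all. Each line was made by somatic cell nuclear transfer from 1 CD8 T cell specific for the Rop7 epitope of Toxoplasma gondii, and passes on the rearranged receptor genes of that cell. Further rearrangement of these genes is known in the lines, also in homozygous mice, and not every T cell keeps the founding receptor. All 3 receptors bind the same epitope on H-2Ld, the lines were kept on a BALB/c background, and the mice were homozygous for the receptor chains. Splenocytes from all lines were held overnight with recombinant IL-2 at 10 ng per ml and no antigen, and CD3+ CD8+ H-2Ld-Rop7+ cells were then sorted to a purity of 90 to 95%. The study compared these unstimulated cells to ask how clones of 1 specificity differ at rest. Since each receptor came with 1 nuclear donor, the receptor and any other difference between the lines cannot be told apart. The age and sex of the mice are not given in the sources used here.

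Quiescence in a naive T cell is an actively maintained state of small size, low metabolism and arrest before DNA synthesis. KLF2 and the FOXO factors keep the genes for lymph node homing and IL-7 survival signals on, while the BTG and TOB proteins bring the CCR4-NOT deadenylase to messenger RNAs, whose poly(A) tails it shortens. TSC1 with TSC2 holds back the growth kinase complex mTORC1, FOXP1 limits the response to IL-7, and SLFN2 is needed for naive T cells to stay resting.

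In these cells 3 of the 9 tested factors differed among the clones, namely Klf2, Tob1 and Btg2. Rop7-I had the lowest level of Klf2, and Rop7-II had the lowest levels of Tob1 and Btg2. Rop7-III had Klf2 at a level that overlapped that of Rop7-II. Its Tob1 and Btg2 were the highest, but neither was called between Rop7-III and Rop7-I. The other 6 tested factors, Klf6, Foxp1, Foxo3, Btg1, Slfn2 and Tsc1, did not pass the test in any comparison. Genes were called in limma, fitted to log2(TPM + 1) of all 9 samples, at a Benjamini-Hochberg adjusted p under 0.01. TPM is a share of the transcripts of a sample corrected for transcript length. In an F test over the 3 clones, 3 of 9 factors were called, against 14.1% of all tested genes.

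The sequences before the annotated start sites of the 3 genes that differed are shown. Start sites were not measured in these cells, and for Tob1 the annotated gene begins upstream of the window. They are the 250 bases before the annotated start in RefSeq on GRCm38.p6, 5′ to 3′ on the strand of the gene. They lie at chr8:72318812-72319061 on the plus strand for Klf2, chr11:94211204-94211453 on the plus strand for Tob1 and chr1:134079156-134079405 on the minus strand for Btg2. Capitals mark matches to any of 6 motifs on either strand.
Klf2: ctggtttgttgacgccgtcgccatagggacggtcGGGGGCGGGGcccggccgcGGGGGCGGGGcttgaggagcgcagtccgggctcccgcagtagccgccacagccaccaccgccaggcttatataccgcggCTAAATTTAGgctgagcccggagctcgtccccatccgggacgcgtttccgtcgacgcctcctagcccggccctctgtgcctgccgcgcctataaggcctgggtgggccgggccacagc
Tob1: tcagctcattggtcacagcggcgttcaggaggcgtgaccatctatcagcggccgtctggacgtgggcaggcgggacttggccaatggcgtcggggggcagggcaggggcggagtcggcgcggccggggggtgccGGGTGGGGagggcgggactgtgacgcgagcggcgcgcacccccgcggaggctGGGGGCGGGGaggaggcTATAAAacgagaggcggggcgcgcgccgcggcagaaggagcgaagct
Btg2: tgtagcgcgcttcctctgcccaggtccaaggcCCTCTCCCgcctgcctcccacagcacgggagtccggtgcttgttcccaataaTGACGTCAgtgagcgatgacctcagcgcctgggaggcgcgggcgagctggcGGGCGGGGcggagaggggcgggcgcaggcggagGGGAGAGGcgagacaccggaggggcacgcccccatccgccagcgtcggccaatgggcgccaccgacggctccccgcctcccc

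The motifs searched were the forkhead motif TGTTTAC, the cAMP response element TGACGTCA, a KLF-type box CCNCNCCC and the TATA box TATAAA. The CArG box and the MEF2 box were also searched. In the KLF-type pattern N is any base, so a match need not hold CACCC. Of the runs marked for it, only GGGTGGGG before Tob1 holds CACCC, read on the other strand. The KLF-type box was found 4 times before Klf2, 3 times before Tob1 and 3 times before Btg2, and some of these matches overlap each other. This box is common and occurs in 49.5% of the 32851 mouse promoter windows of 300 bases, 250 before and 50 after a start. Klf2 alone of the 3 has a MEF2 box, 118 bases before the start, a motif held by 3.19% of windows. Tob1 has TATAAA 47 bases before its start, as have 13.6% of windows somewhere, and Btg2 has the cAMP response element 166 bases before its start, as have 1.79%. The forkhead motif, in 3.65% of windows, and the CArG box, in 1.63%, were not matched in the 3 windows. The windows of 300 bases are rich in G and C, at 69.3% for Klf2, 75.3% for Tob1 and 72.0% for Btg2, beside a median of 52.7% over all windows. Among the other factors, Btg1 was the member with a forkhead match, 204 bases before its start, and the Slfn2 window held none of the 6 motifs. A match is a run of letters and was not tested for binding.

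Klf2 encodes a zinc-finger factor that switches on S1pr1, the gene for a sphingosine phosphate receptor. It lies on chromosome 8, from 72319062 to 72321654 on GRCm38. In Rop7-I its level was 806, 870.0 and 775 TPM in the 3 replicates. In Rop7-II it was 1207, 1343 and 1381 TPM. In Rop7-III it was 1072, 1194 and 1234 TPM. Every Rop7-I sample lay below every sample of the other clones, and the samples of Rop7-II and Rop7-III overlapped. The mean was 817 ± 48.6 TPM (SD, n = 3) in Rop7-I, 1311 ± 91.8 in Rop7-II and 1166 ± 84.4 in Rop7-III. Klf2 was 1.60-fold lower in Rop7-I relative to Rop7-II, a log2 difference of -0.68 (95% interval -0.83 to -0.53, limma adjusted p = 0.000262). It was 1.43-fold higher in Rop7-III relative to Rop7-I, a log2 difference of 0.51 (0.36 to 0.67, limma adjusted p = 0.00162), and without Rop7-III replicate 2 the adjusted p of this comparison was 0.01055. Between Rop7-III and Rop7-II the log2 difference was -0.17 (-0.32 to -0.01, limma adjusted p = 0.103) and was not called.

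Klf6 and Klf4 belong to the same zinc-finger family. The level of Klf6, at chromosome 13 from 5861489 to 5870393, ran from 202 to 209 TPM in Rop7-I, from 182 to 209 in Rop7-II and from 214 to 221 in Rop7-III. The Rop7-III samples lay above all others. None of its 3 differences was called, with log2 values of 0.16 between Rop7-III and Rop7-II (0.06 to 0.26, limma adjusted p = 0.0316), 0.08 between Rop7-III and Rop7-I (-0.02 to 0.18, adjusted p = 0.302) and 0.08 between Rop7-I and Rop7-II (-0.02 to 0.18, adjusted p = 0.257). Without Rop7-II replicate 2, which had the highest Klf6 of its clone at 209 TPM, the difference between Rop7-III and Rop7-II was 0.21 with an adjusted p of 0.00562. Klf4, a cell cycle inhibitor in CD8 T cells at chromosome 4 from 55527137 to 55532475, was at 0.08 to 0.68 TPM over the 9 samples and stayed under the filter of a maximum TPM over 1. Fitted without that filter, its log2 differences ran from -0.18 to 0.12, and the smallest of the 3 limma adjusted p-values was 0.561.

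Tob1 encodes an antiproliferative protein that binds the CCR4-NOT deadenylase, and it has been described as a brake on T-cell activation. It lies on chromosome 11 from 94209842 to 94215495, and the start site of the window shown above is inside that span. Its level was 123, 129 and 122 TPM in Rop7-I. In Rop7-II it was 71.1, 94.8 and 77.5 TPM. In Rop7-III it was 138, 139 and 140.3 TPM. The 3 clones did not overlap, with Rop7-II lowest and Rop7-III highest, and the Rop7-II samples were the most widely spread. The means were 125 ± 3.83 TPM (SD, n = 3) in Rop7-I, 81.2 ± 12.3 in Rop7-II and 139 ± 1.35 in Rop7-III. Tob1 was 1.71-fold higher in Rop7-III relative to Rop7-II, a log2 difference of 0.78 (95% interval 0.59 to 0.97, limma adjusted p = 0.000274). It was 1.54-fold higher in Rop7-I relative to Rop7-II, a log2 difference of 0.63 (0.43 to 0.82, limma adjusted p = 0.00141). This call was lost in a fit of those 2 clones alone, in which the adjusted p was 0.0105. Between Rop7-III and Rop7-I the log2 difference was 0.15 (-0.04 to 0.34, limma adjusted p = 0.286) and was not called although the samples did not overlap. Over the alternative fits this difference ran from 0.05 to 0.18. Its limma adjusted p was highest, at 0.734, with the B-cell marker level as a covariate.

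Btg2 encodes a related antiproliferative protein that is induced by p53 and also binds the deadenylase. It lies on chromosome 1 from 134074865 to 134079155. In Rop7-I its level was 253, 271 and 270.4 TPM. In Rop7-II it was 239.8, 233 and 231 TPM. In Rop7-III it was 285, 284 and 294 TPM. The order of the clones was the same as for Tob1, again with no overlap, and the range was narrower. The means were 265 ± 10.6 TPM (SD, n = 3) in Rop7-I, 235 ± 4.68 in Rop7-II and 288 ± 5.47 in Rop7-III. Btg2 was 1.23-fold higher in Rop7-III relative to Rop7-II, a log2 difference of 0.29 (95% interval 0.22 to 0.37, limma adjusted p = 0.000401). Between Rop7-I and Rop7-II the log2 difference was 0.17 (0.10 to 0.25, limma adjusted p = 0.00905), which was just under the limit. This call was lost when any of 8 of the 9 samples was left out, with adjusted p-values up to 0.0414, and was kept without Rop7-I replicate 1 (0.00573). Between Rop7-III and Rop7-I it was 0.12 (0.04 to 0.20, limma adjusted p = 0.0499) and was not called.

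Btg1, the nearest relative of Btg2 among the members, is at chromosome 10 from 96617001 to 96622813. Its level ran from 479 to 521 TPM in Rop7-I, from 460.3 to 474 in Rop7-II and from 467 to 494 in Rop7-III. Rop7-I lay above Rop7-II in every sample, and Rop7-III overlapped both. The largest of its differences was a log2 value of 0.09 between Rop7-I and Rop7-II (0.01 to 0.18, limma adjusted p = 0.111), and no comparison was called.

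**Figure D1:**
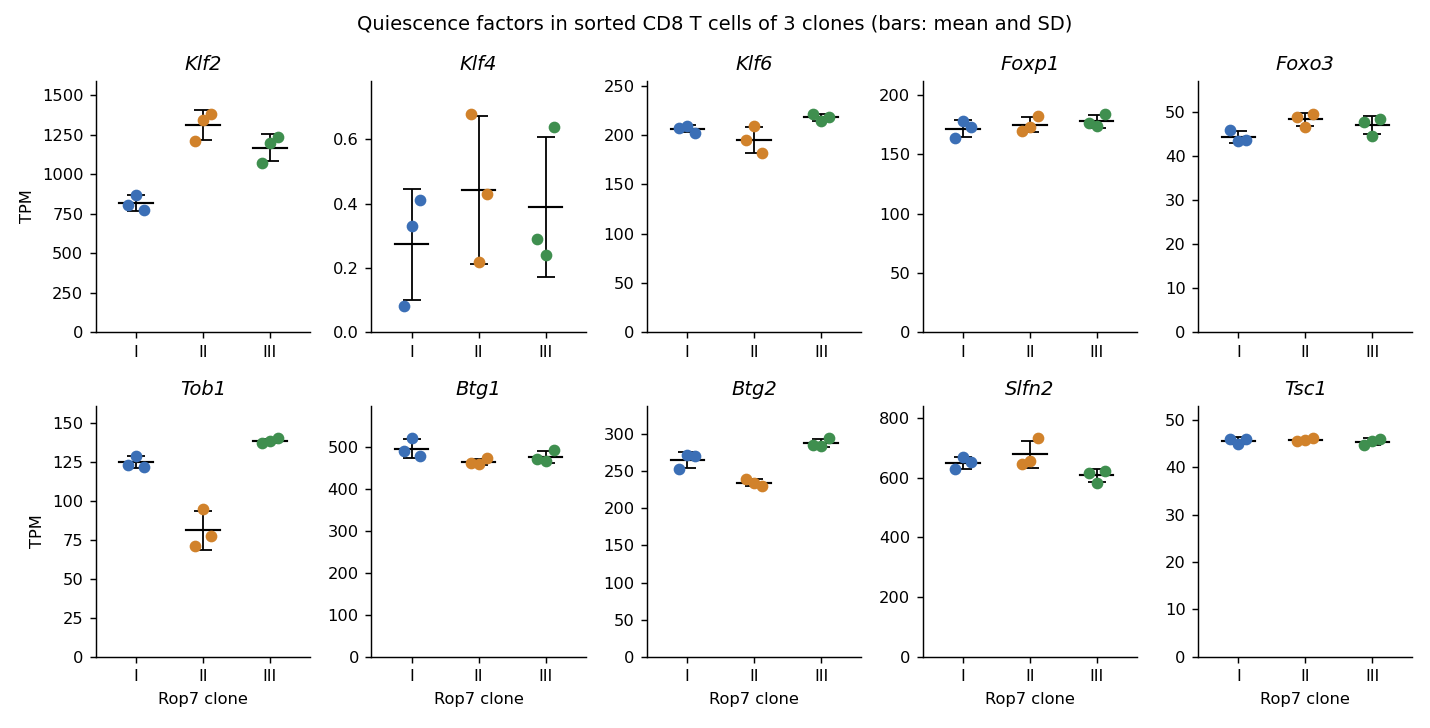
TPM (vertical axes, each from 0) of the 10 quiescence factors in clones I, II and III, with a point per replicate and bars for the mean and SD of 3 replicates. Klf2 is lowest in Rop7-I (817 TPM), Tob1 and Btg2 are lowest in Rop7-II (81.2 and 235 TPM), Tsc1 stays between 44.7 and 46.1 TPM, and Klf4 is under 1 TPM in all samples.

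The forkhead factors showed no called difference. Foxp1 (chromosome 6 from 98925342 to 99522746) was at 164 to 178 TPM in Rop7-I, 169 to 182 in Rop7-II and 173 to 184 in Rop7-III, so that all 3 clones overlapped. Its differences ran from -0.03 to 0.05 on the log2 scale, and the smallest of the 3 limma adjusted p-values was 0.463. Foxo3 (chromosome 10 from 42181845 to 42276695), a transcription factor of cell cycle arrest and cell death genes, was at 43.4 to 45.95 TPM in Rop7-I, 46.6 to 49.6 in Rop7-II and 44.6 to 48.4 in Rop7-III. Rop7-I was below Rop7-II in every sample, and that log2 difference was -0.12 (95% interval -0.22 to -0.02, limma adjusted p = 0.0988).

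Slfn2 (chromosome 11 from 83065112 to 83070678), a member of the Schlafen family whose loss leaves mouse T cells unable to stay quiescent, was the second most abundant member after Klf2. It was at 629.5 to 668 TPM in Rop7-I, 647 to 732 in Rop7-II and 582 to 624 in Rop7-III. The Rop7-III samples lay below all others, the opposite of their place for Tob1, Btg2 and Klf6. The log2 difference was -0.16 between Rop7-III and Rop7-II (95% interval -0.27 to -0.04, limma adjusted p = 0.0476) and -0.10 between Rop7-III and Rop7-I (-0.21 to 0.01, adjusted p = 0.237), and neither was called.

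Tsc1 (chromosome 2 from 28640993 to 28691172) had the narrowest range of the members. Its TPM values were 46.1, 44.9 and 46.0 in Rop7-I, 45.5, 45.85 and 46.1 in Rop7-II and 44.7, 45.5 and 46.1 in Rop7-III. The 3 log2 differences were each -0.01, and the 95% intervals allowed a ratio between clones of 0.941 to 1.05. The spread between replicates was 0.018 on the log2 scale, beside a median of 0.0881 over all tested genes, and 0.231% of tested genes had a smaller one.

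The order of the members by level, which TPM allows since it is corrected for length, was nearly the same in the 3 clones. From the top it was Klf2, Slfn2, Btg1, Btg2, Klf6, Foxp1 and Tob1, followed by Foxo3 and Tsc1, with Klf4 last. Klf6 and Foxp1 overlapped in Rop7-II, Foxo3 and Tsc1 overlapped in Rop7-I and Rop7-III, and Tsc1 had the higher mean of that pair in Rop7-I. No other neighbours in the order overlapped within a clone. The 10 genes summed to between 2765 and 3356 TPM per sample, of which Klf2 was 28.0% to 29.6% in Rop7-I, 39.1% to 41.2% in Rop7-II and 34.9% to 38.0% in Rop7-III.

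Read against all tested genes, the members did not all move one way. Between Rop7-III and Rop7-II, 2 of 9 were higher and 0 lower, where 12.3% of all tested genes were called, 6.39% higher and 5.89% lower, and 4 of 9 did not overlap between the clones, beside 40.7% of all genes. Between Rop7-III and Rop7-I, 1 of 9 was higher and 0 lower, beside 4.85% of all genes called, 2.58% higher and 2.28% lower, and 5 of 9 did not overlap, beside 38.2%. Leaving out Rop7-III replicate 2 took the count of called members in this comparison to 0. Between Rop7-I and Rop7-II, 2 of 9 were higher and 1 lower, beside 7.53% called, 3.67% higher and 3.85% lower, and 5 of 9 did not overlap, beside 35%. With 9 members, each gene weighs heavily in such a share, and the share over all genes is not matched for level or spread. By mean level the tested members exceeded 64.7% to 99.0% of tested genes. All but Klf2 and Tob1 had a spread between replicates below the median of 0.0881 on the log2 scale. The 3 comparisons share samples, so their counts are not independent. The median log2 difference of the 9 members was 0.02, 0.08 and -0.01 in the 3 comparisons in this order, and that of all tested genes was -0.02, -0.00 and -0.01. The median size of the difference was 0.16, 0.08 and 0.09 for the members and 0.13, 0.10 and 0.12 for all genes. No member reached a 2-fold difference, which 1.7%, 1.06% and 0.949% of all genes did with a call.

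**Figure D2:**
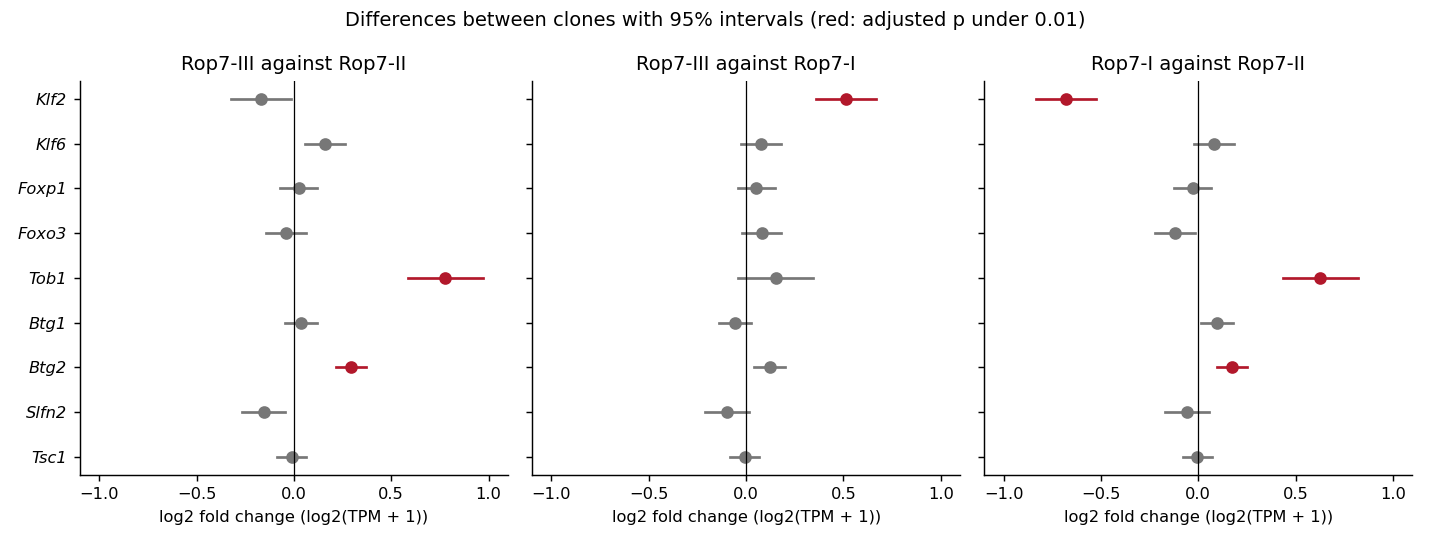
Log2 fold change on the log2(TPM + 1) scale (horizontal axis) of the 9 tested factors in the 3 comparisons, with the first clone named minus the other, and lines for the 95% interval. Red marks a limma adjusted p under 0.01, reached by Tob1 and Btg2 against Rop7-II in both panels that include it and by Klf2 in both panels that include Rop7-I.

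**Figure D3:**
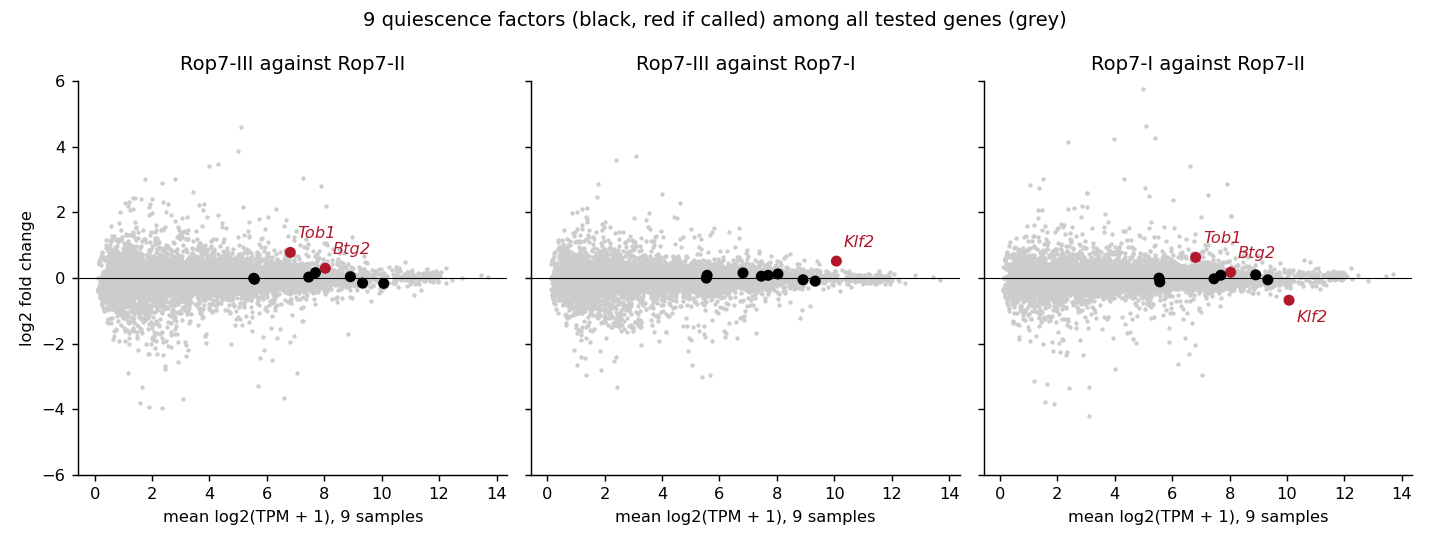
Log2 fold change (vertical axis) against mean log2(TPM + 1) over 9 samples (horizontal axis) for all 12115 tested genes in grey and 9 quiescence factors in black, or red where called. The members lie on the right, more abundant side of the cloud, and the difference of largest size among them is 0.78, for Tob1 between Rop7-III and Rop7-II.

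Across the 9 samples the members fell into profiles of different shape. Pearson's r of log2(TPM + 1) was 0.89 between Tob1 and Btg2, 0.84 between Klf6 and Tob1 and 0.78 between Klf6 and Btg2. It was -0.80 between Klf6 and Slfn2 and -0.47 between Klf2 and Tob1. These values describe 9 libraries in 3 groups, so that differences between the clones enter all of them. By the same measure, over 9 samples, the tested genes most like Klf2 were Zfp36l2 (0.973) and Trim11 (0.969), those most like Tob1 were Sntb1 (0.992) and Dennd4c (0.990), and those most like Btg2 were Adk (0.988) and Sepp1 (0.987). For Klf2, Tob1 and Btg2 there were 24, 71 and 62 genes with r over 0.95.

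Markers were used to check the cells, since in bulk samples fewer cells of a type and less RNA per cell cannot be told apart. The 7 CD8 T-cell markers, among them Cd3e and Cd8b1, summed to 6599 to 6824 TPM in Rop7-I, 6637 to 6772 in Rop7-III and, above both, 6996 to 7396 in Rop7-II. Cd8a was lower in Rop7-III relative to Rop7-II, at -0.39 on the log2 scale (limma adjusted p = 0.000205), and in Rop7-I relative to Rop7-II, at -0.22 (0.00640), where Lck was also lower, at -0.19 (0.00685). The other CD8 T-cell markers were not called. Of the naive state, 4 markers, Ccr7, Lef1, Tcf7 and Il7r, summed to 4119 to 4262.5 TPM in Rop7-I, 3991 to 4376 in Rop7-II and 4621 to 4744 in Rop7-III. These markers did not move together. In Rop7-III relative to Rop7-II, Il7r was called higher (mean 749 against 317 TPM) and Ccr7 lower (735 against 808). Lef1 (734 against 774) and Tcf7 (2447 against 2348) were not called. The 14 B-cell markers summed to 395 to 1034 TPM in Rop7-I, 188 to 2412 in Rop7-II and 148 to 311 in Rop7-III, and none was at 0. Rop7-II replicate 1 stood apart, with all 14 B-cell markers and all 11 myeloid markers at their highest, and it was also the sample with the lowest Tob1 and, within Rop7-II, the lowest Klf2. Myeloid markers summed to 839 TPM there, 167 TPM in Rop7-II replicate 2 and 334 TPM in Rop7-II replicate 3, beside 137 to 235 TPM in Rop7-I and Rop7-III, so that 2 of the 3 samples of the clone with the lowest Tob1 and Btg2 were above all samples of the other clones. The part of the myeloid markers in the differences was not tested. Without that sample Tob1 differed by 0.69 between Rop7-III and Rop7-II (limma adjusted p = 0.000253) and by 0.54 between Rop7-I and Rop7-II (0.00148). Klf2 differed by -0.74 between Rop7-I and Rop7-II (0.000141), and Btg2 by 0.31 between Rop7-III and Rop7-II (0.000625). The call of Btg2 between Rop7-I and Rop7-II was lost without it, at a difference of 0.19 (limma adjusted p = 0.0105). The 5 CD4 T-cell markers summed to at most 39.3 TPM and the 5 NK-cell markers to at most 2.6 TPM, with Klre1 at 0 in 6 samples and Ncr1 in 3. Both maxima were in Rop7-II replicate 1, which had the highest value of 4 markers of each list, among them Cd4 at 6.75 TPM. Cd40lg differed from that, at 2.9 to 3.7 TPM in Rop7-III, and was called higher there relative to both other clones. Erythroid markers summed to 225 to 1412 TPM in Rop7-I, 15.2 to 119 in Rop7-II and 69.3 to 287 in Rop7-III, and their part in the differences was not tested.

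Some markers of division and of the memory-like state were highest in Rop7-III, and others were not. Tob1 and Btg2 were also highest there, though neither was called between Rop7-III and Rop7-I. The 12 division genes summed to 57.6 to 78.8 TPM in Rop7-III, above 38.7 to 41.5 in Rop7-I and 34.0 to 39.0 in Rop7-II. Mki67, a protein of dividing cells, was at 6.6, 8.51 and 10.5 TPM in Rop7-III and at 1.07 to 2.72 TPM in the other 6 samples. Of 11 tested division genes, 5 were higher in Rop7-III relative to Rop7-II, 4 were higher relative to Rop7-I and 0 were lower. The shares called were 45.5% and 36.4%, beside 12.3% and 4.85% of all tested genes. Plk1, a mitotic kinase, was at 8.58 to 10.8 TPM in Rop7-III and 9.5 to 11.2 in the other samples, and Cdc20, an activator of the anaphase-promoting complex, was at 10.7 to 14.6 and 10.8 to 14.5 TPM. The 11 memory-like genes summed to 141 to 155 TPM in Rop7-III, 111 to 117 in Rop7-I and 93.4 to 106 in Rop7-II, with up to 3 of 11 at 0 in a sample, among them Gzmk and Klrg1 in all Rop7-III samples. Of 7 tested memory-like genes, 3 were higher in Rop7-III relative to Rop7-II and 1 relative to Rop7-I. These are 42.9% and 14.3% of those tested, beside 12.3% and 4.85% of all genes. Eomes, a T-box factor of memory cells, was highest in Rop7-I, at 12.35 to 17.5 TPM, with 1.49 to 3.07 in Rop7-II and 5.3 to 7.62 in Rop7-III. Its difference of -0.95 between Rop7-III and Rop7-I was not called (limma adjusted p = 0.0174). Ly6c2, at 1.17 to 6.26 TPM, was called in no comparison and had its highest value in Rop7-II. The 22 immediate early and handling-response genes summed to 907 to 957 TPM in Rop7-III, 952 to 1111 in Rop7-I and 985 to 1073 in Rop7-II. The part of these genes in the differences of Tob1 and Btg2 was not tested.

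Genes of the same families and pathways were counted from lists of 98 genes, of which 86 were tested. Between Rop7-III and Rop7-II, 11 were higher and 5 lower, 18.6% of those tested beside 12.3% of all genes. Of these, 5 higher and 2 lower were from the list of 13 KLF2 and FOXO target genes. The shares of the other lists in this comparison ran from 0% for the FOXO and FOXP family to 37.5% for the KLF family. Between Rop7-III and Rop7-I, 7 were higher and 2 lower, 10.5% beside 4.85%, and between Rop7-I and Rop7-II, 10 were higher and 4 lower, 16.3% beside 7.53%. The medians over the 86 were -0.02, 0.01 and -0.02. The lists were chosen with earlier results of these data known, so these shares are a description and not a test. Between Rop7-III and Rop7-II the count of 16 fell to 9, 10 and 9 when Rop7-III replicate 1, 2 or 3 was left out. Between Rop7-III and Rop7-I the count of 9 fell to 4 or 5 when any of the 6 samples of those clones was left out.

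The list of KLF2 and FOXO target genes had 5 of 13 higher and 2 lower between Rop7-III and Rop7-II, 2 higher and 1 lower between Rop7-III and Rop7-I, and 4 higher and 2 lower between Rop7-I and Rop7-II. These are 53.8%, 23.1% and 46.2% of the list, beside 12.3%, 4.85% and 7.53% of all tested genes. The list was chosen with earlier results of these data known, so its shares are a description and not a test. It includes Il7r, which the paper had already reported as raised in Rop7-III. Il7r, the IL-7 receptor chain of resting T cells, had TPM values of 473, 525 and 533 in Rop7-I, 300.2, 318 and 333 in Rop7-II and 747, 730.0 and 771 in Rop7-III. The clones were fully separated, and Il7r was higher in Rop7-III relative to Rop7-II by 1.24 on the log2 scale (limma adjusted p = 1.26e-06), higher in Rop7-III relative to Rop7-I by 0.55 (0.000264) and higher in Rop7-I relative to Rop7-II by 0.69 (4.85e-05). Bcl6, which encodes a transcriptional repressor and is induced by FOXO factors, was at 23.6 to 30.9 TPM in Rop7-I, 14.1 to 17.7 in Rop7-II and 10.4 to 13.4 in Rop7-III, with no overlap between the clones. It was lower in Rop7-III relative to Rop7-I, at -1.17 on the log2 scale (limma adjusted p = 0.000564). Rop7-I was above Rop7-II by 0.78 (0.00332), a call lost when any of 4 of the 9 samples was left out (up to 0.0183) or in a fit of those 2 clones alone (0.0109), and the difference of -0.39 between Rop7-III and Rop7-II was not called (0.0504).

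S1pr1, which guides the exit of T cells from lymphoid tissue and is another KLF2 target, was at 760.4 to 889.5 TPM over all samples and was not called in any comparison. Its log2 differences were 0.12, 0.08 and 0.04 for Rop7-III against Rop7-II, Rop7-III against Rop7-I and Rop7-I against Rop7-II, with limma adjusted p-values of 0.0720, 0.276 and 0.565. Ccr7, the chemokine receptor of lymph node homing, was at 679.9 to 692 TPM in Rop7-I, 788 to 831 in Rop7-II and 728 to 745 in Rop7-III. It was lower in Rop7-I relative to Rop7-II by a log2 difference of -0.24 (limma adjusted p = 0.000522) and lower in Rop7-III relative to Rop7-II, at -0.14 on the log2 scale (0.00655), a call lost when any of 8 of the 9 samples was left out. Itgb7, an integrin chain of gut homing, was at 437 to 524 TPM in Rop7-I, 621 to 667 in Rop7-II and 403 to 436 in Rop7-III. It was lower in Rop7-III relative to Rop7-II, at -0.60 on the log2 scale (limma adjusted p = 0.000263) and lower in Rop7-I relative to Rop7-II, at -0.46 on the log2 scale (0.00186), a call lost in a fit of those 2 clones alone (0.0102). Ccng2, a cyclin of arrested cells that FOXO factors induce, was at 199 to 213 TPM in Rop7-I, 146 to 158 in Rop7-II and 177 to 182 in Rop7-III. Its level was above that of Rop7-II by 0.43 in Rop7-I (limma adjusted p = 0.000142) and in Rop7-III by 0.23 (0.00282), the latter lost without Rop7-III replicate 1 or 3 (0.0140 and 0.0132).

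In the FOXO and FOXP family, 1 of 4 tested genes was called in 1 comparison, Rop7-III against Rop7-I, where 4.85% of all genes were called. Foxo1, the main FOXO factor of naive T cells and a driver of Il7r and Klf2, was at 113 to 119.7 TPM in Rop7-I, 127 to 143 in Rop7-II and 137 to 144 in Rop7-III. Rop7-I lay below the other clones in every sample, the place it also had for Klf2 but not for Il7r, which was lowest in Rop7-II. Foxo1 was higher in Rop7-III relative to Rop7-I by 0.27 (limma adjusted p = 0.00777), a call lost when any of the 6 samples of those clones was left out (up to 0.0345). Rop7-I against Rop7-II gave -0.23 with an adjusted p of 0.0107.

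Of 8 tested genes of the KLF family outside the members, 2 were higher and 1 lower between Rop7-III and Rop7-II, 0 were called between Rop7-III and Rop7-I, and 1 was higher between Rop7-I and Rop7-II. The shares called were 37.5%, 0% and 12.5%, beside 12.3%, 4.85% and 7.53% of all genes. Klf13 was at 247 to 271 TPM in Rop7-I, 271 to 312 in Rop7-II and 225 to 229 in Rop7-III, and it was lower in Rop7-III relative to Rop7-II, at -0.37 on the log2 scale (limma adjusted p = 0.00115). Klf3, a transcriptional repressor, was at 369 to 399 TPM in Rop7-I, 319 to 361 in Rop7-II and 414 to 421 in Rop7-III. The Rop7-III level exceeded that of Rop7-II by 0.27 (limma adjusted p = 0.00384), with the call lost without any of the 3 Rop7-III replicates (0.0152 to 0.0171). Klf11 was at 14.0 to 15.8 TPM in Rop7-I, 8.22 to 9.36 in Rop7-II and 11.2 to 12.1 in Rop7-III. Relative to Rop7-II it was higher in Rop7-I by 0.69 (limma adjusted p = 0.000360) and in Rop7-III by 0.37 (0.00661), the latter lost when any of 6 of the 9 samples was left out (up to 0.0285).

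Of the 16 tested genes of the BTG/TOB family and the CCR4-NOT deadenylase, 1 was higher and 0 lower between Rop7-III and Rop7-II, 1 higher and 0 lower between Rop7-III and Rop7-I, and 1 higher and 1 lower between Rop7-I and Rop7-II. Of all tested genes 12.3%, 4.85% and 7.53% were called, so that the share of 6.25% between Rop7-III and Rop7-II was below that of all genes, and those of 6.25% and 12.5% in the other comparisons were above it. Both genes called encode deadenylase subunits of this complex. Cnot6l was at 79.0 to 82.1 TPM in Rop7-I, 62.8 to 67.5 in Rop7-II and 84.9 to 91.7 in Rop7-III, the order that Tob1 and Btg2 had. Relative to Rop7-II, Cnot6l was higher in Rop7-III by 0.42 (limma adjusted p = 0.000143) and in Rop7-I by 0.30 (0.00150). Cnot8 was at 85.5 to 87.3 TPM in Rop7-I, 119 to 128 in Rop7-II and 115 to 121 in Rop7-III. Like Klf2 it was lowest in Rop7-I, by a log2 difference of -0.52 against Rop7-II (limma adjusted p = 3.16e-05), and it was higher in Rop7-III relative to Rop7-I by 0.45 (0.000103).

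Tsc2, the partner of Tsc1, was at 43.2 to 50.8 TPM over all samples, with limma adjusted p-values of 0.367, 0.722 and 0.212 in the 3 comparisons in the order above. Of the 22 tested genes of the TSC, Rheb and mTORC1 list, 1 was higher and 2 lower between Rop7-III and Rop7-II, 0 were called between Rop7-III and Rop7-I, and 1 was higher between Rop7-I and Rop7-II. These shares of 13.6%, 0% and 4.55% were near or below the 12.3%, 4.85% and 7.53% of all genes. Rptor, which encodes the mTORC1 subunit raptor, was at 26.5 to 29.1 TPM in Rop7-I, 22.6 to 23.5 in Rop7-II and 33.0 to 35.8 in Rop7-III. Relative to Rop7-II, Rptor was higher in Rop7-III by 0.55 (limma adjusted p = 0.000117) and in Rop7-I by 0.28 (0.00702), the latter lost when any of 7 of the 9 samples was left out (up to 0.0315). Ddit4, a stress-induced inhibitor of mTORC1, was at 17.3 to 23.0 TPM in Rop7-I, 25.1 to 32.3 in Rop7-II and 13.7 to 17.2 in Rop7-III. It was lower in Rop7-III relative to Rop7-II, at -0.76 on the log2 scale (limma adjusted p = 0.00367), with the call lost without any of the 3 Rop7-III replicates (0.0103 to 0.0151). The other gene called lower was Stk11, which encodes the kinase LKB1 upstream of AMPK, at 151 to 165 TPM in Rop7-III and 188 to 213 in Rop7-II, a log2 difference of -0.34 (limma adjusted p = 0.00601).

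In the Schlafen family, 1 of 8 tested genes was called, 12.5% in each of the comparisons with Rop7-II, beside 12.3% and 7.53% of all genes. Slfn5, a neighbour of Slfn2 at a distance of 100.3 kb, was at 43.0 to 47.3 TPM in Rop7-I, 20.1 to 27.3 in Rop7-II and 43.3 to 46.2 in Rop7-III. It was higher relative to Rop7-II by 0.82 in Rop7-III (limma adjusted p = 0.000585) and by 0.83 in Rop7-I (0.000923), and Slfn2 itself was called in neither.

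Of 15 other quiescence regulators, 1 was higher and 0 lower between Rop7-III and Rop7-II, 3 higher and 1 lower between Rop7-III and Rop7-I, and 2 higher and 1 lower between Rop7-I and Rop7-II. The shares were 6.67%, 26.7% and 20%, where all tested genes gave 12.3%, 4.85% and 7.53%. Zfp36l2, an RNA-binding protein that speeds the decay of messenger RNAs, was at 354 to 357 TPM in Rop7-I, 459 to 502 in Rop7-II and 449 to 499 in Rop7-III. It was lower in Rop7-I relative to Rop7-II, at -0.45 on the log2 scale (limma adjusted p = 0.000261) and higher in Rop7-III relative to Rop7-I by 0.42 (0.000476). Its relative Zfp36l1 was at 188 to 203 TPM in Rop7-I, 167 to 175 in Rop7-II and 161 to 171 in Rop7-III. Zfp36l1 was higher in Rop7-I relative to Rop7-II by 0.20 (limma adjusted p = 0.00768) and lower in Rop7-III relative to Rop7-I, at -0.25 on the log2 scale (0.00303), calls that were lost when any of 7 and any of 4 samples was left out, respectively. Ikzf1, the lymphoid transcription factor Ikaros, was at 369 to 406 TPM in Rop7-I, 299.6 to 316 in Rop7-II and 349 to 368 in Rop7-III. Relative to Rop7-II it was higher in Rop7-I by 0.30 (limma adjusted p = 0.00174) and in Rop7-III by 0.21 (0.00705), the latter lost when any of 7 samples was left out. Cdkn2c, a cyclin-dependent kinase inhibitor, was at 2.14 to 4.01 TPM in Rop7-I, 2.54 to 5.06 in Rop7-II and 7.49 to 9.69 in Rop7-III. Rop7-III was above Rop7-I by 1.18 (limma adjusted p = 0.00955), a call lost when any of 7 samples was left out (up to 0.0412).

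**Figure D4:**
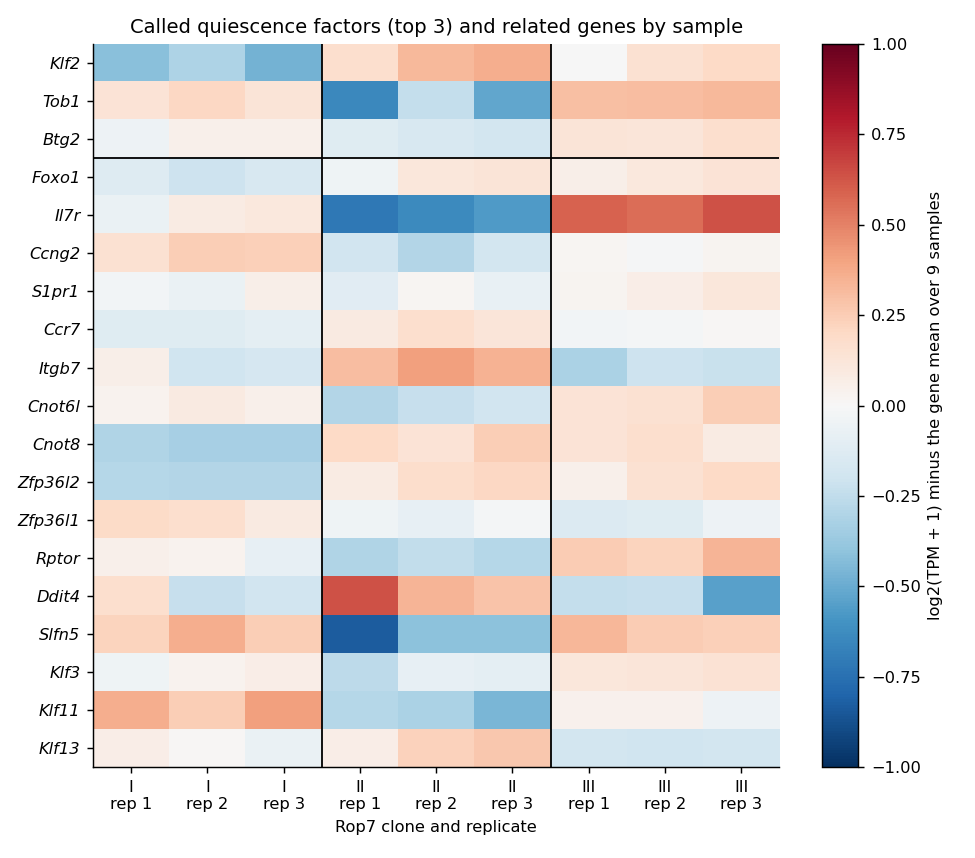
Heat map of log2(TPM + 1) minus the mean of each gene over 9 samples (colour scale from -1 to 1), for the 3 called factors above the line and 16 related genes under it, with samples in columns by clone. Klf2, Foxo1, Cnot8 and Zfp36l2 are lowest in Rop7-I, and Tob1, Btg2, Il7r, Cnot6l and Slfn5 are lowest in Rop7-II.

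The genes within 1 Mb of the members were examined in the same fit, where 16.6% of all tested genes were called in at least 1 of the 3 comparisons and 2.48% with a 2-fold difference. Around Klf2, 6 of 41 tested neighbours were called, around Tob1, 5 of 19, and around Btg2, 2 of 16. Called neighbours also numbered 3 of 32 for Slfn2, 4 of 13 for Tsc1, 1 of 13 for Foxo3 and 2 of 2 for Klf4, and there were 0 of 2 for Klf6, 0 of 3 for Foxp1 and 0 of 1 for Btg1. Wfikkn2, which encodes a secreted protease inhibitor 20.5 kb from Tob1, was at 7.26 to 8.31 TPM in Rop7-I, 1.64 to 2.14 in Rop7-II and 1.91 to 3.22 in Rop7-III. The Rop7-I level exceeded that of Rop7-II by 1.56 (limma adjusted p = 0.000262), and Rop7-III relative to Rop7-I was lower, at -1.22 on the log2 scale (0.00137), an order that Tob1 did not have. Luc7l3, 75.6 kb from Tob1, was higher in Rop7-III relative to Rop7-II by 0.23 (limma adjusted p = 0.00448), and Spag9, at 83.7 kb, was higher in Rop7-I relative to Rop7-II by 0.25 (0.00605). Kdm5b, a histone demethylase gene 481 kb from Btg2, was at 51.4 to 53.7 TPM in Rop7-I, 42.0 to 43.7 in Rop7-II and 57.1 to 59.5 in Rop7-III, the order of Btg2 itself. Relative to Rop7-II it was higher in Rop7-III by 0.44 (limma adjusted p = 5.99e-05). Ccl5, a chemokine gene of memory-like cells 455.1 kb from Slfn2, was at 26.4 to 30.4 TPM in Rop7-III, 6.92 to 9.03 in Rop7-I and 2.42 to 6.51 in Rop7-II. Rop7-III was above Rop7-II by 2.61 (limma adjusted p = 8.99e-05).

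The library did not keep strand, so reads from a gene and from an antisense partner cannot be told apart. RefSeq places 5 other transcripts over Foxp1, 1 over Foxo3 and 1 over Slfn2, which were not among the genes of the table. Btg1 has related copies, Btg1b and Btg1c, that were not among the genes of the table either, so the Btg1 value is uncertain to the extent that reads could be shared.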

How the data were processed

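RNA-seq of polyadenylated RNA was available for 9 samples, grouped by the clone in their labels, with 3 biological replicates per clone. The authors aligned single-end reads and counted them with RSEM 1.2.11 against mm10 RefSeq genes, and deposited values in TPM, corrected for transcript length and scaled to a common total (1000000 to 1000001 per sample). The study's methods give a typical number of reads, not one per sample, and TPM keep no counts, so the depth of each sample is unknown and counting intervals were not computed. The submitters' notes also name DESeq2 1.8.1, which needs counts. Here log2(TPM + 1) was compared with limma 3.58.1 in R 4.3.3, with 1 fit over the 9 samples in which the spread may vary with mean expression. Only genes that exceeded 1 TPM in some sample entered, 12115 of 24060. Wherever an adjusted p is given without a tool, it is from limma, adjusted by Benjamini-Hochberg over all tested genes within a comparison and called under 0.01. Intervals are 95% intervals of the log2 difference and are not adjusted. Adding 1 TPM understates the change of weakly expressed genes. The code was tested on simulated data. Positions and promoters are from RefSeq on GRCm38.p6, the assembly of mm10, and all 10 members had a promoter entry. No batch is named in the labels. The replicates are labelled biological, and the mice or days behind them are not given in the sources used here.

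All 10 members were named, with up to 4 called genes of each wider list by the smallest F-test p, Foxo1, Tsc2, S1pr1, Ccr7 and Il7r, the 2 genes most like each called member, defining marker genes, and called genes within 1 Mb of a member, of which those described in full were picked with their values in view. Stk11, Eomes, Ly6c2, Plk1 and Cdc20 were added after their values were seen. A gene of the lists is not reported here. The members and lists were chosen with earlier results of these data known. The alternatives were pseudocounts of 0.1 and 0.5, no filter and a minimum of 1 TPM in all samples, a common median, quantile normalization, no trend, sample weights, the replicate number as a block, the B-cell marker level as a covariate, only the clones compared, each sample left out, an adjusted p under 0.05 and a 2-fold minimum.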

Additional observations from a re-analysis of the deposited data

How the results depend on the processing

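Leaving out each sample in turn gave 2 to 3 called factors between Rop7-III and Rop7-II, 0 to 1 between Rop7-III and Rop7-I, 2 to 3 between Rop7-I and Rop7-II and 3 in every F test, and 9 to 17, 4 to 13 and 10 to 14 genes of the wider lists. An adjusted p under 0.05 gave 4, 2 and 3 factors, and 17 wider genes between Rop7-III and Rop7-I and 24 between Rop7-I and Rop7-II. A 2-fold minimum gave 0 factors in each comparison, and 1, 2 and 0 wider genes. A fit of only the clones compared gave 1 factor and 9 wider genes between Rop7-I and Rop7-II. For Rop7-III against Rop7-I, the wider lists gave 5 calls with no filter, 4 with no trend and 14 with sample weights. The causes were not tested. Other counts stayed within 1.5 times.

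No sign was found that equal replicate numbers pair the samples, though with 3 replicates per clone this check cannot exclude pairing. Deviations of same-numbered samples correlated at -0.388 to 0.106 over 9 pairs and those of different numbers at -0.177 to 0.324 over 18. With the replicate block, called genes over the whole table numbered 1105, 373 and 613 against 1488, 588 and 912, the factors called changed only by the loss of Btg2 between Rop7-I and Rop7-II (adjusted p = 0.0218), and the wider lists gave 4 calls in place of 9 between Rop7-III and Rop7-I.

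Reversals of sign were found only in uncalled differences. Quantile normalization turned Tsc1 to 0.012, 0.006 and 0.005 in the 3 comparisons, and Slfn5 between Rop7-III and Rop7-I to 0.005. A common median turned Tsc1 (0.009) and Slfn5 (0.011) between Rop7-III and Rop7-I. The B-cell covariate turned Foxo1 between Rop7-III and Rop7-II (-0.013) and Tsc2 between Rop7-III and Rop7-I (-0.003). Leaving out 1 sample gave, between Rop7-III and Rop7-II, -0.001 to 0.054 for Foxp1, -0.022 to 0.065 for Foxo1 and -0.061 to 0.02 for Zfp36l2. Between Rop7-III and Rop7-I it gave -0.019 to 0.005 for Tsc1 and -0.033 to 0.038 for Slfn5. Between Rop7-I and Rop7-II it gave -0.055 to 0.007 for Foxp1, -0.012 to 0.006 for Tsc1 and -0.377 to 0.018 for Cdkn2c.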
